A study of Mus musculus with 10 samples.

Results

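The position of the repressive histone mark H3K27me3 was compared with that of the chromatin remodeller Brg1 in the same wildtype (WT) cells. The comparison took every autosomal summit of the WT H3K27me3 list (108777) and of the WT Brg1 list (81227), which together made up 190004 of the 819400 summits in the 8 peak lists analysed. A summit is the single base that the peak caller placed at the top of a peak. The members were set by antibody, genotype and chromosome alone. No measured value was part of that rule, but the members were chosen with earlier results of these data known.

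The cells were AB17, an immortalized hepatocyte line from a C57BL/6 mouse homozygous for a floxed Arid1a allele (Arid1a fl/fl), carrying SV40 large T antigen and an activated H-Ras. Both groups therefore shared the floxed background and both transgenes, and they came from 1 cell line. WT cells had received adenovirus with GFP and kept Arid1a, and knockout (KO) cells had received adenovirus with Cre. ChIP-seq was done for H3K27me3 and H3K9me3 in both genotypes and for Arid1a, Brg1, Ctcf and Rad21 in WT cells, with 1 library per group. With single libraries there is no check across replicates, and p-values were not computed. The 95% intervals are Wilson binomial intervals. They describe counting error alone, because summits of 1 domain depend on each other.

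H3K27me3 is deposited by Polycomb repressive complex 2 and is known for spreading over the silent promoters of developmental genes, where it forms broad domains. Brg1, the product of Smarca4, is the ATPase of the SWI/SNF complex, which slides or ejects nucleosomes at promoters and enhancers and of which Arid1a is a subunit. SWI/SNF and Polycomb are known from flies and mammals as opponents at shared target genes. In liver, Polycomb is known to silence genes of other lineages in hepatocytes.

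Read depth is unknown from the lists. The H3K27me3 list had a median −log10 q-value of 2.55 and 12373 autosomal summits at 5 or more, against 2.56 and 3200 in the Brg1 list, but these values depend on the depth of each library and were used only within a list. Both lists were taken to have been called against the same WT input, so an error of that input could touch both. The label of the cells was checked at hepatocyte marker genes. Albumin (Alb), Apoa1 and Serpina1a had neither a H3K27me3 nor a Brg1 summit within 2 kb of their starts, Hnf4a and Apoc3 had H3K27me3 only, Foxa2 and Cebpa had both, and Ttr had Brg1 only. Peak lists do not measure expression, and the identity of the cells could not be settled from them.

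Gene starts were sorted by whether a summit of either list lay within 2 kb. As examples, picked by peak strength and not as typical of their class, the 250 bases before the start are printed for 3 genes. Among starts with H3K27me3 only, it is the gene with the strongest H3K27me3 summit (Onecut3, chr10:80494585-80494834, plus strand). Among starts with Brg1 only, it is the gene with the strongest Brg1 summit (Rdm1, chr11:101626945-101627194, plus strand). The leading gene with both is the last (Apba1, chr19:23758637-23758886, plus strand). All are read 5′ to 3′ from the RefSeq GRCm38 genome with every CG in capitals.
Onecut3: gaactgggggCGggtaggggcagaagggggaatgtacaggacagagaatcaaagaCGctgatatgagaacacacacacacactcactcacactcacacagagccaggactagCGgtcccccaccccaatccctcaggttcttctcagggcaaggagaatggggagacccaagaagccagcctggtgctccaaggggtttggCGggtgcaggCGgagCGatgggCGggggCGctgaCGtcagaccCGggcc
Rdm1: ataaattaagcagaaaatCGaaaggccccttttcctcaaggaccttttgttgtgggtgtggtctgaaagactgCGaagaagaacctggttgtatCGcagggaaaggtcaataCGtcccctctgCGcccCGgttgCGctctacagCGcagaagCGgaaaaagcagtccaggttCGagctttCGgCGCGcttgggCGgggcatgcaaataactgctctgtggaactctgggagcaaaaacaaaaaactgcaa
Apba1: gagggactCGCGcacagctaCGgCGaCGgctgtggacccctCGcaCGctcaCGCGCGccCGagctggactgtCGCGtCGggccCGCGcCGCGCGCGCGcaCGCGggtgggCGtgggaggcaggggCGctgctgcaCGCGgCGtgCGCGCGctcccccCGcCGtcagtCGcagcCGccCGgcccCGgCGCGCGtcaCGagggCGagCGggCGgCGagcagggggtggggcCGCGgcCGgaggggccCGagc

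These stretches hold 10, 14 and 49 CG dinucleotides, in that order. The pair of letters reads the same on either strand. At least 1 CG occurred in the same 250 bases of 92.6% of the 20807 autosomal protein-coding starts, at least 10 in 47.2% and at least 49 in 0.159%. Apba1 therefore lies at the CG-dense end of all starts, while Onecut3 is close to the median of 8. The class medians were 7 with H3K27me3 only, 15 with Brg1 only and 13 with both. At least 49 CG occurred in 0.309% of starts with both, so Apba1 is not typical of its class.

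The first question was how far H3K27me3 and Brg1 keep apart along the chromosomes. Of the 108777 H3K27me3 summits, 3239 lay within 1 kb of a Brg1 summit, a share of 2.98% (2.88 to 3.08). The background was the share of all sequenced bases within the same distance of Brg1, taken per chromosome and weighted by its H3K27me3 summits, and it came to 6.80%. The ratio of the shares was 0.438 (0.423 to 0.453), where 1 means as near as the bases of the same chromosomes.

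The gap closed with distance. Within 5 kb of Brg1 lay 13.3% of H3K27me3 summits against 24.0% of bases, a ratio of 0.553. Within 20 kb it was 40.7% against 51.95%, a ratio of 0.782. At 50 kb the shares were 68.1% and 70.5%, and the ratio of 0.966 (0.962 to 0.969) was close to 1.

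Counted from the Brg1 side, the picture was alike. Of 81227 Brg1 summits, 2873 (3.54%) had H3K27me3 within 1 kb, against 8.13% of bases. The ratios were 0.435, 0.530, 0.729 and 0.934 at 1, 5, 20 and 50 kb. The median distance to the nearest summit of the other list was 27.4 kb for H3K27me3 and 69.9 kb for Brg1.

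At 1, 5 and 20 kb, the H3K27me3 ratio was below 1 on all 19 autosomes. At 1 kb chromosome 13 had the lowest value (0.181) and chromosome 14 the highest (0.759). These were also the chromosomes with the fewest Brg1 summits, 8.11 and 5.09 per Mb, and their ratios rest on 5 and 22 summits near Brg1. On the other 17 autosomes the ratio at 1 kb lay between 0.346 and 0.582. At 50 kb it was below 1 on 13 of 19 autosomes with chromosome 13 (0.660) and chromosome 7 (1.13) at the ends. The autosomes share both libraries and are not replicates.

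**Figure D1:**
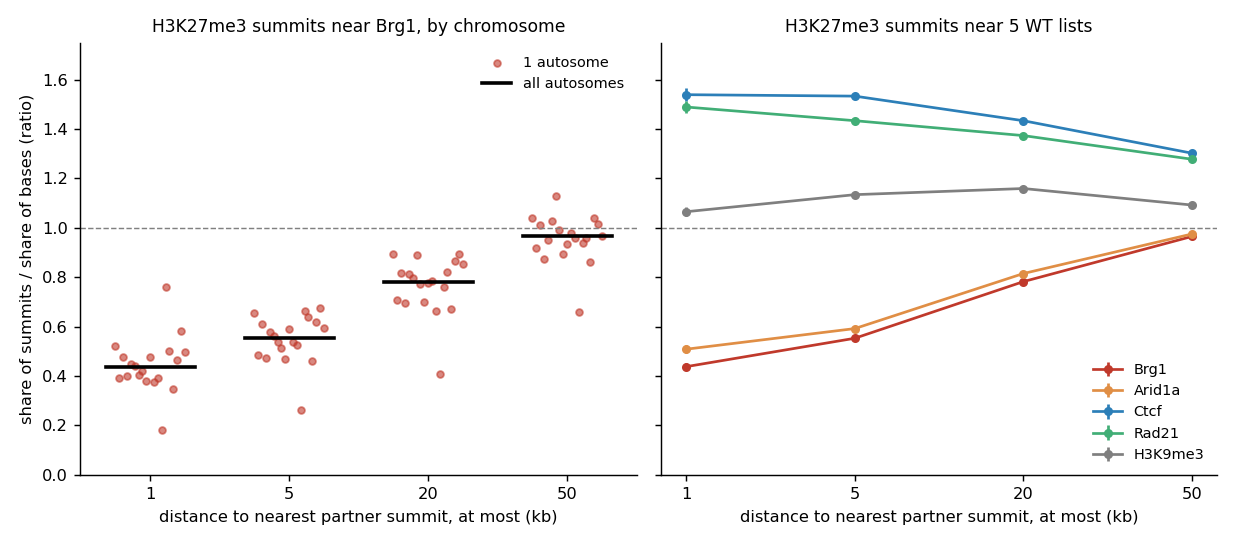
Ratio of the share of WT H3K27me3 summits to the share of bases (vertical axis) within 1, 5, 20 and 50 kb of a partner summit (horizontal axis, categories). Left, Brg1 as partner with 1 point per autosome and a bar for all autosomes; right, 5 WT lists as partners with 95% counting intervals. The Brg1 points lie below 1 up to 20 kb on all 19 autosomes and straddle 1 at 50 kb, and the Arid1a line runs just above the Brg1 line while Ctcf and Rad21 lie above 1.

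Arid1a, which sits in the same complex as Brg1, gave H3K27me3 ratios of 0.509, 0.592, 0.815 and 0.975 at the 4 distances. The counting interval at 1 kb (0.492 to 0.526) lay above that for Brg1. By autosome the ratios at 1 kb overlapped, from 0.152 to 1.38 for Arid1a and from 0.181 to 0.759 for Brg1. Ctcf, which marks loop anchors, and the cohesin subunit Rad21 were on the other side of 1, with 1.54 and 1.49 at 1 kb and 1.302 and 1.28 at 50 kb. The other repressive mark of the series, H3K9me3, was near 1 (1.07 at 1 kb). The lists of the other 5 antibody and genotype groups were not below 1 around Brg1. Their ratios within 1 kb of Brg1 were 4.01 for Arid1a, 3.19 for Rad21, 2.71 for Ctcf, 2.13 for WT H3K9me3 and 1.07 for KO H3K9me3. The KO H3K27me3 list stood further from WT Brg1 than the WT list did, with ratios of 0.331, 0.464, 0.700 and 0.896. Brg1 was not profiled in the KO cells of this series, so that value sets a KO mark against WT occupancy.

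The density of Brg1 summits was followed outwards from H3K27me3. Brg1 stood at 16.4 summits per Mb within 0.5 kb of a H3K27me3 summit, 18.3 at 1 to 2 kb, 31.2 at 5 to 10 kb and 51.2 at 50 to 100 kb, and was lower again, at 17.5 per Mb, in bases over 500 kb away. Relative to bases of the same chromosomes, this ran from 0.441 through 0.867 at 5 to 10 kb and a highest value of 1.46 at 50 to 100 kb down to 0.596. Brg1 was thus sparse on H3K27me3, dense in the surroundings at 20 to 200 kb, and sparse again in the stretches of the genome far from any H3K27me3. Rad21 had no such dip, with a ratio of 1.55 within 0.5 kb and 0.237 beyond 500 kb.

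**Figure D2:**
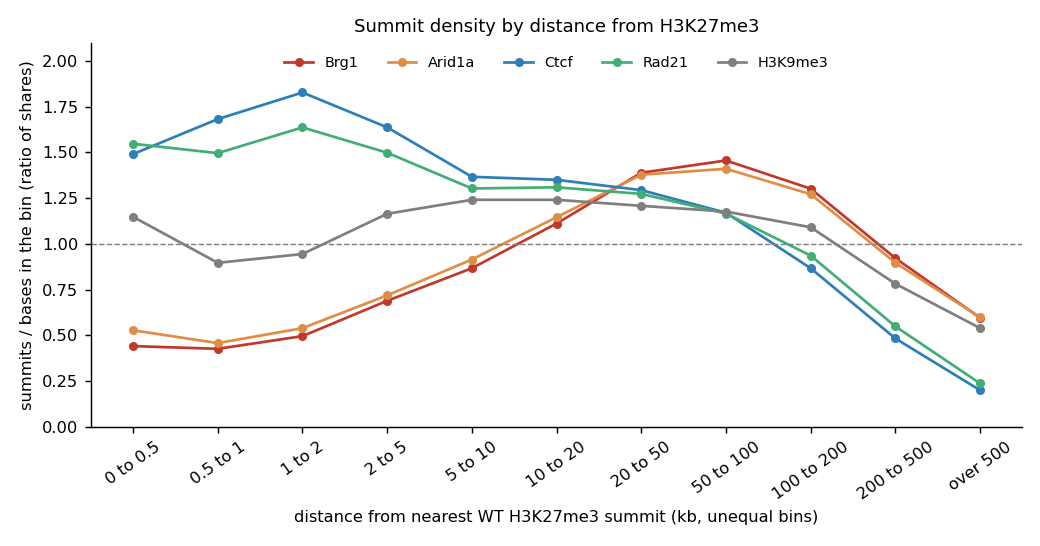
Share of each list's summits divided by the share of bases (vertical axis) in 11 unequal bins of distance from the nearest WT H3K27me3 summit (horizontal axis, kb), for 5 WT lists. Brg1 and Arid1a start near 0.441 and 0.527, pass 1 between 5 and 20 kb and peak at 50 to 100 kb, while Ctcf and Rad21 are highest within 5 kb.

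Fixed windows of 50 kb were lower in Brg1 where H3K27me3 was dense. Windows with no H3K27me3 summit (33010) held a mean of 1.81 Brg1 summits, windows with 1 held 1.754, windows with 2 to 4 held 1.78, windows with 5 to 9 held 1.55 and windows with 10 or more held 0.827. The annotated transcript starts per window did not follow that order, with means of 2.13, 3.33, 4.02, 4.37 and 3.24. Rad21 went the other way, from 1.61 in windows without H3K27me3 to 3.19 in those with 10 or more. Even the windows densest in H3K27me3 were not free of Brg1, as 56.0% (54.5 to 57.4) had no Brg1 summit against 46.5% (45.9 to 47.0) of windows without the mark. Windows with 1, 2 to 4 and 5 to 9 H3K27me3 summits lacked Brg1 less often than windows without the mark, at 44.1%, 41.1% and 42.3%. That order was not kept when windows were split by annotated starts. In windows without a start the shares were 60.2%, 60.7% and 60.5%, against 57.5% without the mark. In windows with a start they were 37.1%, 35.2% and 37.7%, against 37.4%. Windows with 10 or more lacked Brg1 most often in either kind, at 65.4% without a start and 53.2% with one.

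Peak strength went differently with distance on either side. H3K27me3 summits of −log10 q 10 or more lay within 1 kb of Brg1 slightly more often (116 of 2499, 4.64%) than those under 2.5 (1621 of 53320, 3.04%), and 70.7% of those 116 were at annotated starts. Among Brg1 summits the share with H3K27me3 within 1 kb was 4.10% under 2.5, 3.60% at 2.5 to 3.5, 2.41% at 3.5 to 5, 2.21% at 5 to 10 and 0.855% at 10 or more, which is 1 of 117 (interval 0.151 to 4.68). At 50 kb the shares were 41.5% under 2.5, 39.5% at 2.5 to 3.5, 42.7% at 3.5 to 5, 47.8% at 5 to 10 and 67.5% (79 of 117) at 10 or more. Stronger Brg1 summits up to 10 were thus less often on H3K27me3 than weak ones, and the strongest were more often in its wider surroundings. The interval of the 117 at 1 kb spans the values of the weaker classes.

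At gene starts, H3K27me3 lay within 2 kb of 5019 starts and Brg1 within 2 kb of 8620, 24.1% and 41.4% of the 20807. H3K27me3 alone was found at 4047 starts (19.5%), Brg1 alone at 7648 (36.8%), both at 972 (4.67%) and neither at 8140 (39.1%). The product of the 2 shares gives 2079 starts with both, so the observed number was 0.467 of it (0.442 to 0.494). Brg1 stood at 19.4% (18.3 to 20.5) of starts with H3K27me3 and at 48.4% (47.7 to 49.2) of starts without it. The ratio was below 1 on 19 of 19 autosomes, from 0.100 to 0.662.

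Base composition differed between the classes. A start was called CpG-rich where the 500 bp on each side had at least 50% GC and an observed to expected CpG ratio of at least 0.6. Such starts made up 71.9% of those with Brg1 only, 64.7% of those with both, 34.99% of those with H3K27me3 only and 24.2% of those with neither. Within CpG-rich starts the ratio for both was 0.477, and within CpG-poor starts 0.523, so the low number of shared starts was seen in either kind. Arid1a gave 0.474 with H3K27me3 at starts, against 0.908 for Ctcf and 0.871 for Rad21.

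Arid1a, Rad21 and WT H3K9me3 were more frequent at starts with Brg1 than at those without. Arid1a was within 2 kb of 69.7% of starts with Brg1 only, 46.9% with both, 18.1% with neither and 10.5% with H3K27me3 only. Rad21 marked 79.3%, 75.2%, 31.3% and 38.5% of the same classes, and WT H3K9me3, a heterochromatin mark elsewhere in the genome, 59.2%, 58.4%, 25.5% and 30.9%. For Rad21 and WT H3K9me3, starts with both were close to starts with Brg1 only, and for Arid1a they were not. KO H3K9me3 differed little between the classes (14.7% with Brg1 only, 16.6% with both, 13.8% with neither and 15.0% with H3K27me3 only). CpG-rich starts were likewise frequent in both of these classes, and the part of composition in the shares was not tested.

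The share of starts with Brg1 was lower the stronger the mark. It was 28.0% (25.4 to 30.7) where the highest H3K27me3 −log10 q was under 2.5, 20.7% at 2.5 to 5, 15.8% at 5 to 10 and 12.3% (10.5 to 14.3) at 10 or more. Arid1a went from 23.6% to 11.9% over the same steps. Rad21 went from 42.7% to 52.2%, and CpG-rich starts from 29.9% to 65.2%. Brg1 was not counted by composition within these steps, and the part of composition was not tested. By number, Brg1 stood at 21.9%, 16.5% and 11.8% of starts with 1, 2 and 3 or more H3K27me3 summits. Here the other measures went the same way, with Rad21 at 49.4%, 40.8% and 35.5%, Ctcf at 42.5%, 37.1% and 32.2%, and CpG-rich starts at 47.1%, 32.9% and 23.3%. In the other direction, H3K27me3 was found at 16.1% of starts whose Brg1 value was under 2.5 and at 2 of 69 (2.90%) with a value of 10 or more.

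**Figure D3:**
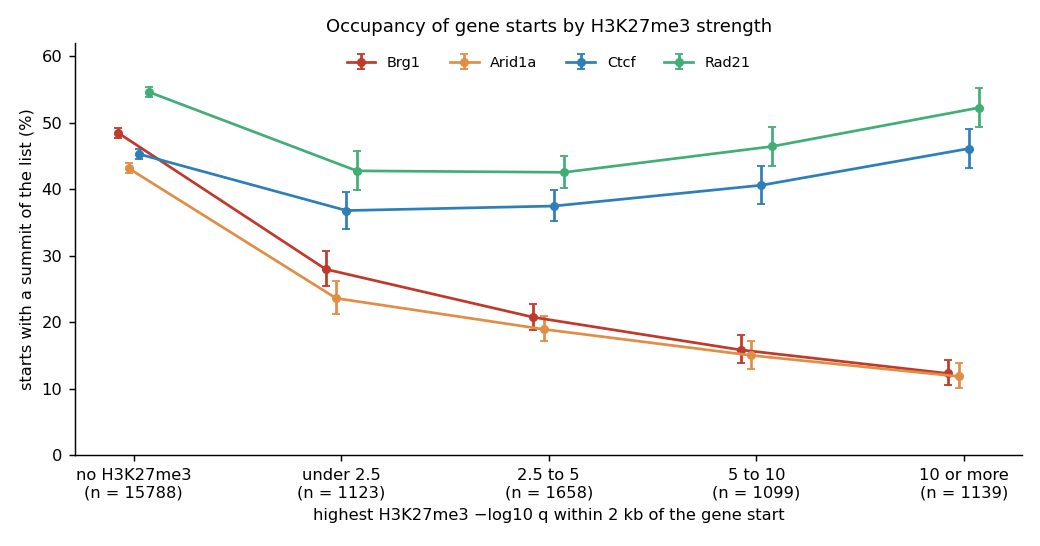
Share of autosomal protein-coding starts with a summit of Brg1, Arid1a, Ctcf or Rad21 within 2 kb (vertical axis, %, 95% counting intervals) by the highest H3K27me3 −log10 q at the start (horizontal axis). Brg1 and Arid1a go down together from 48.4% and 43.1% without the mark to 12.3% and 11.9% at 10 or more, while Rad21 and Ctcf are lowest at starts with a value under 5.

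The 972 starts with both did not usually have the summits on the same spot. The median gap between the closest H3K27me3 and Brg1 summit was 818 bp, and in 8.02% of them it was at most 100 bp. The nearest Brg1 summit lay a median of 472 bp from the start, and the nearest H3K27me3 summit 829 bp, against 366 bp for Brg1 at starts with Brg1 only and 539 bp for H3K27me3 at starts with H3K27me3 only. H3K27me3 lay downstream of 44.7% of starts with both and of 60.9% of starts with H3K27me3 only. Both values were also lower where the 2 met: a median −log10 q of 3.53 against 4.76 for H3K27me3 and of 2.84 against 3.24 for Brg1.

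Among starts with H3K27me3 only, the highest value was at Onecut3. Onecut3, a homeodomain transcription factor, had a H3K27me3 summit of −log10 q 63.1 at 296 bp downstream of its start (chr10:80494835). It was followed by Ccdc184 (54.1), Prdm12 (53.9), a sensory neuron regulator, Plk5 (53.4), Phf21b (52.3), the LIM homeodomain factor Lmx1b (50.7), the neurexophilin Nxph4 (49.2) and the brain proteoglycan Bcan (47.4). All 8 were without Brg1 by the definition of the class, 7 of them also without Arid1a, and 7 had a KO H3K27me3 summit, the exception being Nxph4. These counts were near those of the class, in which 10.5% of starts had Arid1a. A KO summit was present at 94.7% of its starts with −log10 q of 10 or more. The WT summit of Nxph4 was 1996 bp from its start, at the edge of the window.

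Among starts with Brg1 only, the highest values included broadly expressed genes. Rdm1, a DNA repair gene, had a Brg1 summit of 28.0 at 683 bp downstream, and Actb, which encodes beta-actin, had a value of 27.8. Parp16 (25.8), the AP-1 gene Junb (20.3), the ribosomal stalk gene Rplp0 (19.7) and the histone gene Hist2h3c2 (17.7) were next, together with Mrps18b and Ppp1r10 (19.4), whose starts face each other 45 bp apart and share their summits. Arid1a was listed at all 8 and Ctcf at all 8, with a Ctcf value of 80.8 at Rplp0 and 64.8 at Actb. In the whole class, Arid1a was at 69.7% and Ctcf at 65.5% of starts. None of the 8 had H3K27me3 in KO cells, and of the whole class only 1.66% did.

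Starts with both were led by Apba1, an adaptor of neuronal vesicles, where the nearest Brg1 summit lay 654 bp upstream and the nearest H3K27me3 summit 960 bp downstream, with highest values of 5.21 and 19.01 in the window. In Mafa, a transcription factor of beta cells, Brg1 (4.90) lay 1632 bp upstream and H3K27me3 (56.0) 1158 bp downstream. Ache, the acetylcholinesterase gene, had a Brg1 summit of 4.49 at 907 bp upstream and H3K27me3 of 58.1 at 813 bp downstream. Fam222a, R3hdm2, Nfatc1, Trim67 and Mal completed the 8. In 6 of the 8 the nearest H3K27me3 summit lay downstream and the nearest Brg1 upstream, the exceptions being R3hdm2, with the reverse order, and Nfatc1, with both downstream. This order was not that of the class, in which the nearest H3K27me3 summit was downstream at 44.7% and the nearest Brg1 summit at 58.6% of the 972 starts.

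The study drew attention to 10 genes. Smarca4 (5.21), Ctcf (4.68), Atg10 (4.49), Arid1a (4.21) and Rad21 (1.47) had Brg1 only. Gsc (13.996) and Six2 (21.1), homeobox genes of the embryo, Cdh5 (2.84), the endothelial cadherin, and the ubiquitin ligase gene Rnf125 (2.29) had H3K27me3 only. Pmp22 had neither. Gsc and Six2 lay inside long runs of the mark, with 35 and 28 H3K27me3 summits and 0 Brg1 summits over 50 kb on each side. Smarca4 showed the reverse, with 0 H3K27me3 and 6 Brg1 summits. Around Rdm1, with 16 H3K27me3 and 15 Brg1 summits, H3K27me3 lay in separate runs upstream and downstream, and most Brg1 summits lay outside them.

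**Figure D4:**
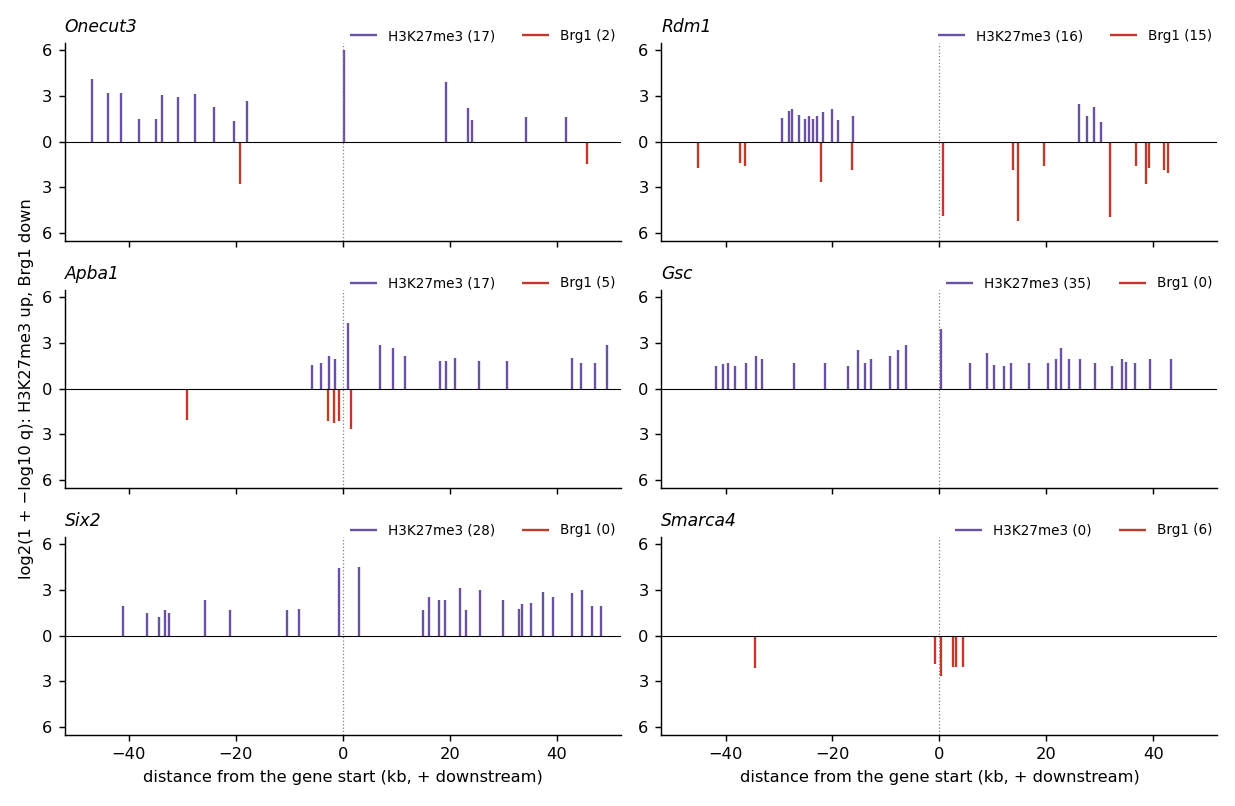
WT summits of H3K27me3 (upward lines) and Brg1 (downward lines) within 50 kb of 6 gene starts (horizontal axis, kb, downstream to the right), with line length log2(1 + −log10 q) and the number of summits in brackets. Gsc and Six2 hold 35 and 28 H3K27me3 summits and no Brg1, and Smarca4 holds 6 Brg1 summits and no H3K27me3. In Apba1 most of the 5 Brg1 summits lie among the 17 of H3K27me3, and 1, at −29.1 kb, lies apart from them.

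Gene groups, whose lists were chosen with earlier results of these data known, were sorted into the same classes. Of 147 developmental transcription factor genes, 75 (51.02%) had H3K27me3 only, 18 Brg1 only, 11 both and 43 neither, against 19.5%, 36.8%, 4.67% and 39.1% of all starts. Tlx2 (46.2), Mnx1 (44.7) and Foxe1 (41.9) had the highest H3K27me3 values, and Gata6 (6.87) and Dlx1 (6.60) the highest Brg1 values among those with Brg1 only. Neuronal genes were further over, with 34 of 53 (64.2%) under H3K27me3 alone and 4 under Brg1 alone. The neurofilament gene Nefh (37.1) and the sodium channel gene Scn8a (36.1) were among them. Of 32 blood and immune genes, 17 had H3K27me3 only, among them the lymphoid factor Ikzf3 (27.8), 3 had Brg1 only and 0 had both. Of 30 endothelial genes, 13 had H3K27me3 only, with She (25.7) and Sox7 (17.98) highest, 1 had Brg1 only and 3 had both (Fli1, Flt1 and Kdr).

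The Hox genes did not follow the other developmental factors. Of 39, 3 had H3K27me3 only (Hoxd1, 25.5, Hoxa13, 22.2, and Hoxc11, 9.23), 17 Brg1 only, 7 both and 12 neither. These were 7.69%, 43.6%, 17.9% and 30.8%, against 19.5%, 36.8%, 4.67% and 39.1% of all starts. H3K27me3, with or without Brg1, stood at 25.6% of Hox starts, near the 24.1% of all starts. Brg1 without H3K27me3 was highest at Hoxb2 (7.56) and Hoxb7 (6.87), and most of the 17 belonged to the HoxA and HoxB clusters. The 7 with both included Hoxc12 (H3K27me3 25.7, Brg1 2.87) and Hoxc13 (12.8 and 3.34). Of the HoxD cluster, only Hoxd1 had a summit of either list at its start in WT cells. Neighbouring Hox starts lie close enough to share a summit, so the members are not independent.

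Histone cluster, ribosomal protein, immediate early and cell cycle inhibitor genes had Brg1 only more often than all starts (36.8%). In that order, 73.1%, 86.1%, 86.7% and 84.6% of their starts were CpG-rich, against 45.7% of all starts. Brg1, with or without H3K27me3, stood at 64.4% of all CpG-rich starts, and the part of composition was not tested. Of 67 histone cluster genes, 62 (92.5%) had Brg1 only and 5 neither, and none had H3K27me3, but several share a summit with a neighbour. Of 72 ribosomal protein genes, 55 had Brg1 only, 6 both and 11 neither, and 0 had H3K27me3 alone. Of 30 immediate early genes, 24 had Brg1 only, led by Junb (20.3), Gadd45b (10.2), Dusp6 (9.78) and Myc (7.56), while Egr4 (30.1), Nr4a3 (6.97) and Nr4a2 (2.84) had H3K27me3 only. Of 26 cell cycle inhibitor and p53 genes, 15 (57.7%) had Brg1 only, such as Mdm2 (8.997). Trp73 (27.6), Cdkn1c (17.98) and Perp (8.94) had H3K27me3 only. Brg1, with or without H3K27me3, stood at 18 (69.2%) of these 26 starts, near its share of all CpG-rich starts.

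Among genes of epithelial and mesenchymal state, 21 of 37 had Brg1 only and 9 H3K27me3 only. Those with Brg1 were led by matrix and cytoskeletal genes such as Fn1 (9.27), Lox (9.14) and Vim (8.10), and they also held the epithelial genes Krt8 (3.16), Krt19 (2.56) and Cldn1 (3.16). Those with H3K27me3 were led by the mesenchymal factor Foxc2 (30.1), followed by the junction genes Cldn7 (20.6) and Ocln (15.95), the adhesion gene Epcam (14.3) and Cdh1 (11.8), and they also held Twist2 (3.44) and Mmp9 (1.70). Epithelial and mesenchymal members were thus found in both classes. Hepatocyte transcription factor genes lay more often under the mark than under Brg1, with 13 of 31 H3K27me3 only, 5 Brg1 only and 4 both. Ppara (26.5), Onecut2 (24.6), Foxa3 (24.4) and Foxa1 (19.01) had the mark, and Xbp1 (7.87), of the unfolded protein response, had the highest Brg1. Of 75 plasma protein genes, 46 had neither, 17 H3K27me3 only and 6 each Brg1 only and both, and 2.67% of them were CpG-rich.

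Of 31 SWI/SNF genes, 20 (64.5%, against 36.8% of all starts) had Brg1 only, including Smarca4 and Arid1b (5.96), and 7 (22.6%, against 19.5%) had H3K27me3 only. Those 7 included Actl6b (13.045), Dpf1 (6.97) and Dpf3 (10.9), which encode subunits used in neurons or muscle, and Bcl11a (29.0) and Bcl11b (16.0). The remaining members of the 7 were Brd7 (2.84) and Phf10 (1.37), with the lowest values. Of the 31 SWI/SNF starts, 83.9% were CpG-rich, and 21 (67.7%) had Brg1 with or without H3K27me3. That was near the 64.4% of all CpG-rich starts that had Brg1, and the part of composition was not tested. The 31 Polycomb genes lay near the shares of all starts, with 13 (41.9%) Brg1 only, among them Ezh2 (8.40), Suz12 (5.96) and Eed (3.24) of the enzyme that deposits H3K27me3, and 5 (16.1%) H3K27me3 only, led by Epop (29.3) and Bmi1 (14.3). Of 1411 olfactory and vomeronasal receptor genes, 1275 (90.4%) had neither, 88 had H3K27me3 only and 45 Brg1 only. Zinc finger Zfp genes (358) had 172 Brg1 only against 20 H3K27me3 only, and of 56 clustered protocadherin genes 44 had neither.

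**Figure D5:**
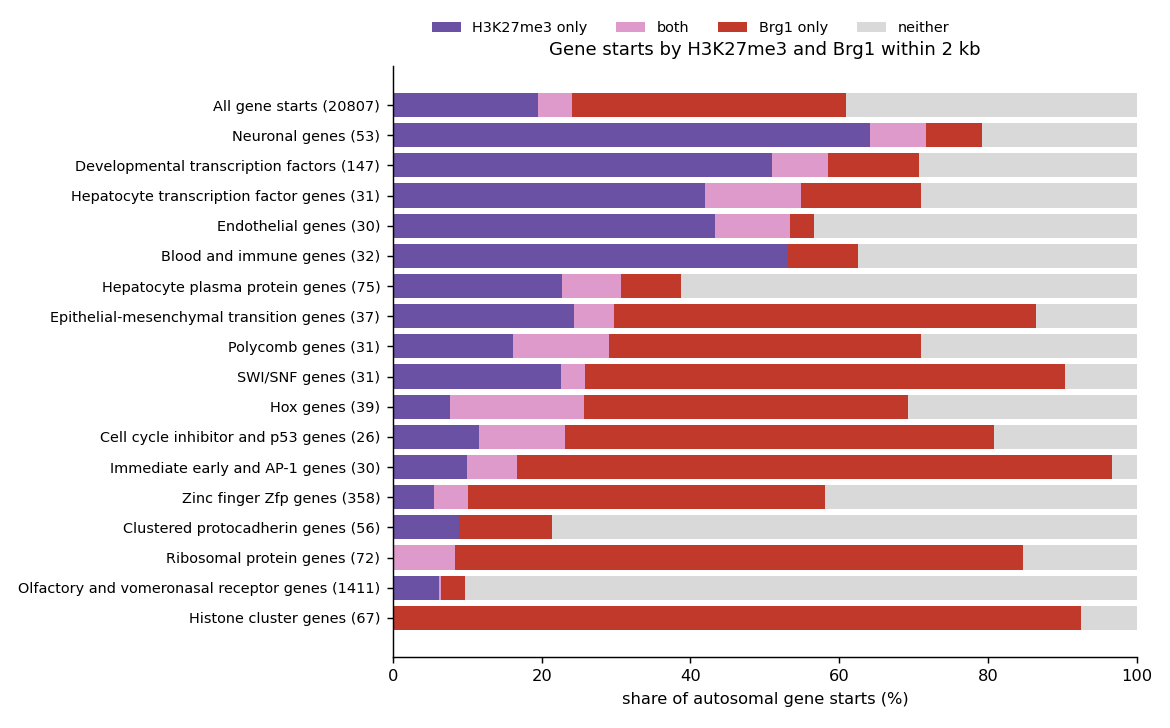
Share of autosomal gene starts (horizontal axis, %) with H3K27me3 only, both, Brg1 only or neither within 2 kb, for 17 gene lists and for all starts, with the number of genes in brackets. Neuronal genes have the largest share with H3K27me3 (64.2% alone), and ribosomal protein and histone genes have none with H3K27me3 alone.

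Finally, the KO H3K27me3 list was read against WT Brg1. The KO list was shorter than the WT list, with 85640 against 108777 autosomal summits, and marked 4276 starts against 5019. A shorter list leaves fewer KO partners to be found, and its part in the shares below was not tested. Of the 5019 starts with H3K27me3 in WT cells, 74.0% also had a KO summit within 2 kb. It was 78.7% (77.4 to 79.9) for starts with H3K27me3 only and 54.8% (51.7 to 57.9) for starts with both. The gap was widest among weak peaks. At −log10 q under 2.5 the shares were 43.0% and 19.1%, at 2.5 to 5 they were 76.4% and 54.7%, at 5 to 10 they were 95.7% and 86.8%, and at 10 or more 94.7% and 95.7%, with overlapping intervals. A KO summit was present at 1.66% of starts that had Brg1 only in WT cells and at 5.32% of those with neither.

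Over all summits, the gap was seen for peaks of −log10 q under 5. Of H3K27me3 summits within 1 kb of Brg1, 43.3% (41.6 to 45.0) had a KO summit within 1 kb, and of those over 50 kb away 58.7% (58.2 to 59.2). The shares near and far were 28.7% and 48.4% at −log10 q under 2.5, 41.6% and 63.8% at 2.5 to 3.5, and 61.1% and 76.1% at 3.5 to 5. Among summits of 5 to 10 the shares were 82.0% (77.3 to 85.9) near and 77.2% (75.6 to 78.8) far, and at 10 or more 76.7% (68.3 to 83.5) and 69.3% (65.5 to 72.8), in the opposite order and with overlapping intervals. Isolated summits, with no other WT H3K27me3 summit within 5 kb, had a KO partner in 21.8% (near) and 29.5% (far), and summits with 4 or more others in 57.4% and 70.4%. The genotypes differ in library and input as well as in Arid1a, and these cannot be told apart.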

How the data were processed

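Per the study's methods, the authors used bowtie2 and mm10 for alignment, SAMtools to discard reads of low quality, Picard against duplicates and MACS2 with default settings and an input control. Versions are not given in the sources used here. Each deposited list gave a summit with its −log10 q-value from MACS2, a unit read from the values. Default narrow calling divides a broad mark such as H3K27me3 into many summits, and no read depth, width or fold enrichment was used. The use of the WT input for both lists was inferred from sample titles.

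Of 10 samples, the 2 inputs had no list analysed here. Summits on 19 autosomes were used, and 0 lay beyond a chromosome end of GRCm38. Summits were counted as near by the distance between their bases. The background was the share of A, C, G and T bases within that distance, per chromosome, weighted by H3K27me3 summits. No random placements were made. Genes were 20807 autosomal protein-coding genes of GENCODE vM21, with the outermost start of each. Wilson intervals have a level of 95%. The named genes were the 8 with the highest value among starts with H3K27me3 only and among starts with Brg1 only, the 8 starts with both whose lower rank of the 2 values was best, the top members of 17 gene lists, and 10 genes that the study drew attention to. Genes without a regular symbol were passed over, and a few genes are not reported here. The members, the gene lists and the markers were chosen with earlier results of these data known. Counting was tested on simulated positions. Python 3.11.15, numpy 2.4.6, pandas 2.3.3 and statsmodels 0.14.6 were used.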

Additional observations from a re-analysis of the deposited data

How the results depend on the processing

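No paired analysis was possible because each group had 1 library. The ratio at 50 kb changed side of 1 with the background: over all autosomes pooled, without weighting by chromosome, it was 1.01, and with bases displaced by 500 kb from each H3K27me3 summit it was 0.879. At 1, 5 and 20 kb the ratio stayed below 1 in all 10 alternatives, and at 50 kb in 9 of 10. Where the value left its counting interval, it was as follows at 1, 5 and 20 kb. The pooled background gave 0.478, 0.598 and 0.831, and the displaced background 0.364, 0.471 and 0.687. Summits with −log10 q of at least 3 gave 0.319, 0.417 and 0.629 (0.896 at 50 kb), and of at least 5 they gave 0.256, 0.306 and 0.464 (0.791 at 50 kb), the value at 1 kb resting on 10 summits. Merging H3K27me3 summits within 3 kb, which left 40435, gave 0.532, 0.622 and 0.817 (0.970 at 50 kb). Leaving out soft-masked sequence gave 0.399, 0.495 and 0.712 (0.925 at 50 kb). Equal numbers of summits gave 0.788 at 20 kb and 0.974 at 50 kb.

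At gene starts the ratio was 0.329 with a window of 1 kb and 0.646 with 5 kb, 0.287 and 0.102 (15 starts) with −log10 q of at least 3 and 5, 0.432 with equal numbers, and 0.580 with any annotated transcript start. CpG-poor starts, an alternative chosen after seeing the data together with the number of neighbouring summits in the KO comparison, gave 0.523. Keeping to sites over 2 kb from annotated starts, leaving out bins shared by 6 or more lists, and adding X and Y left each ratio they were run for within its counting interval. The unknown depth limits these lists: a start without a summit is not shown to lack the mark or Brg1.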
